A study of Mus with 8 samples.

Results

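The expression of 10 preadipocyte commitment and brake genes was followed in 3T3-L1 cells, a mouse embryo fibroblast line already committed to the fat lineage. The genes were chosen by name, for their known roles, from the 24013 genes in the count table. They are Dlk1, a surface ligand that holds preadipocytes undifferentiated, the transcription factors Gata2, Gata3, Sox9 and Zfp521, which restrain adipogenesis, the transcription factors Zfp423, Ebf1 and Ebf2, which act in commitment to the adipocyte lineage, and Pdgfra and Pdgfrb, the PDGF receptors that mark adipocyte progenitors. All 10 passed the filter on low counts. RNA-seq libraries were made from C cells, infected with a pLKO.1 lentivirus carrying a scrambled shRNA, and from P cells, infected with the same vector carrying an shRNA to Prep1. Both were selected with puromycin, and both were sampled at day −2, before induction, and at day 1, with 2 biological replicas in each of the 4 conditions. Differentiation was induced 2 days after confluence with dexamethasone, IBMX and insulin in fetal bovine serum, and day 1 was 24 h later. The hormones, the change of serum and the time spent at confluence thus cannot be told apart in the day 1 to day −2 comparison, and 1 shRNA in 1 cell line stands for Prep1 down-regulation.

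A fibroblast-like cell becomes an adipocyte in steps. Commitment restricts the cell to the fat lineage while it still divides and looks like a fibroblast, and the committed preadipocyte then waits until hormones switch on C/EBP factors and Pparγ. Zfp423 and the EBF factors favour the commitment step and help to set up the Pparγ programme, and Zfp521 binds EBF proteins and opposes Zfp423. Dlk1 (also called Pref-1), Gata2 and Gata3 are abundant in preadipocytes, lie upstream of Pparγ and the C/EBP factors as repressors, and are known to decline as fat cells form. Sox9 acts below Dlk1 and represses the genes of C/EBPβ and C/EBPδ. Pdgfra and Pdgfrb are receptor tyrosine kinases of mesenchymal progenitors and of mural cells around vessels.

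The libraries held 20428816 to 27614353 counts, so that 3 counts corresponded to 0.107 to 0.160 counts per 1000000 of the normalised library (CPM, the unit of every level given here). Prep1 (Pknox1), the targeted gene, gave 28.1 and 26.4 CPM in the C replicas against 17.2 and 18.3 in the P replicas of day −2, and 38.1 and 36.5 against 23.6 and 23.8 at day 1. Every P library was below every C library, and the log2 ratios were −0.62 and −0.65 (adjusted p = 0.0558 and 0.0575, edgeR). The 2 replicas of P cells at day −2 stood apart: the SD of the log2 difference between replicas over 5597 genes was 0.795 there, against 0.137 and 0.261 in C cells at day −2 and day 1 and 0.121 in P cells at day 1. All 10 fibroblast and preadipocyte markers, among them Col1a1, Col3a1, Vim and Fn1, were measured. Their summed level was 19740 and 21079 CPM in the C and 26161 and 81518 in the P libraries of day −2, and 32748 to 38986 (C) and 23797 to 23827 (P) at day 1, so the P replicas of day −2 stood apart here too. The summed level of the 6 mature adipocyte markers at day −2 was 0.398 to 0.399 CPM for C and 2.32 to 5.32 for P replicas, and at day 1 it was 0.358 to 0.671 for C and 42.2 to 46.4 for P replicas. Markers of chondrocytes, osteoblasts, skeletal muscle, endothelium and macrophages summed to at most 8.14 CPM in any library. In bulk RNA, fewer cells expressing a gene and less of its RNA per cell cannot be told apart.

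Calls required an adjusted p under 0.1 together with a ratio above 2 or below 0.5. Induction in C cells raised 3 of the 10 genes (Dlk1, Zfp423 and Pdgfra) and lowered 2 (Gata2 and Pdgfrb), beside 10.7% and 9.68% of all 13339 genes tested that were called higher and lower. Induction in P cells raised Dlk1 and Pdgfra and lowered Gata2 and Pdgfrb, beside 7.65% higher and 10.4% lower over all genes. At day −2, Ebf1 and Pdgfrb were higher in P than in C cells, 2 of 10 beside 4.83% of all genes, and none of the 10 was lower, beside 2.15%; 6 of the 10 had an unadjusted p under 0.05, beside 25.2% of all genes, and DESeq2 also called 2 of 10, beside 9.48%. At day 1, Ebf1 was higher and Ebf2 lower in P cells, beside 1.83% and 2.23% of all genes. With 10 genes, counts this small are a description of the genes and not of a class. The median log2 ratio of the 10 was 0.33, 0.10, 0.10 and 0.28 in these comparisons, against −0.01 to 0.02 over all genes. With library totals in place of TMM, the calls over all genes split into 1287 higher and 1074 lower on induction in P cells, against 1020 and 1386, and into 454 and 364 between P and C cells at day −2, against 644 and 287. The genes restraining differentiation did not move as a block: Dlk1 and Gata2 changed in opposite directions on induction in both cell types. The comparisons share libraries, each condition entering 2 of them, and so are not independent of each other.

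**Figure D1:**
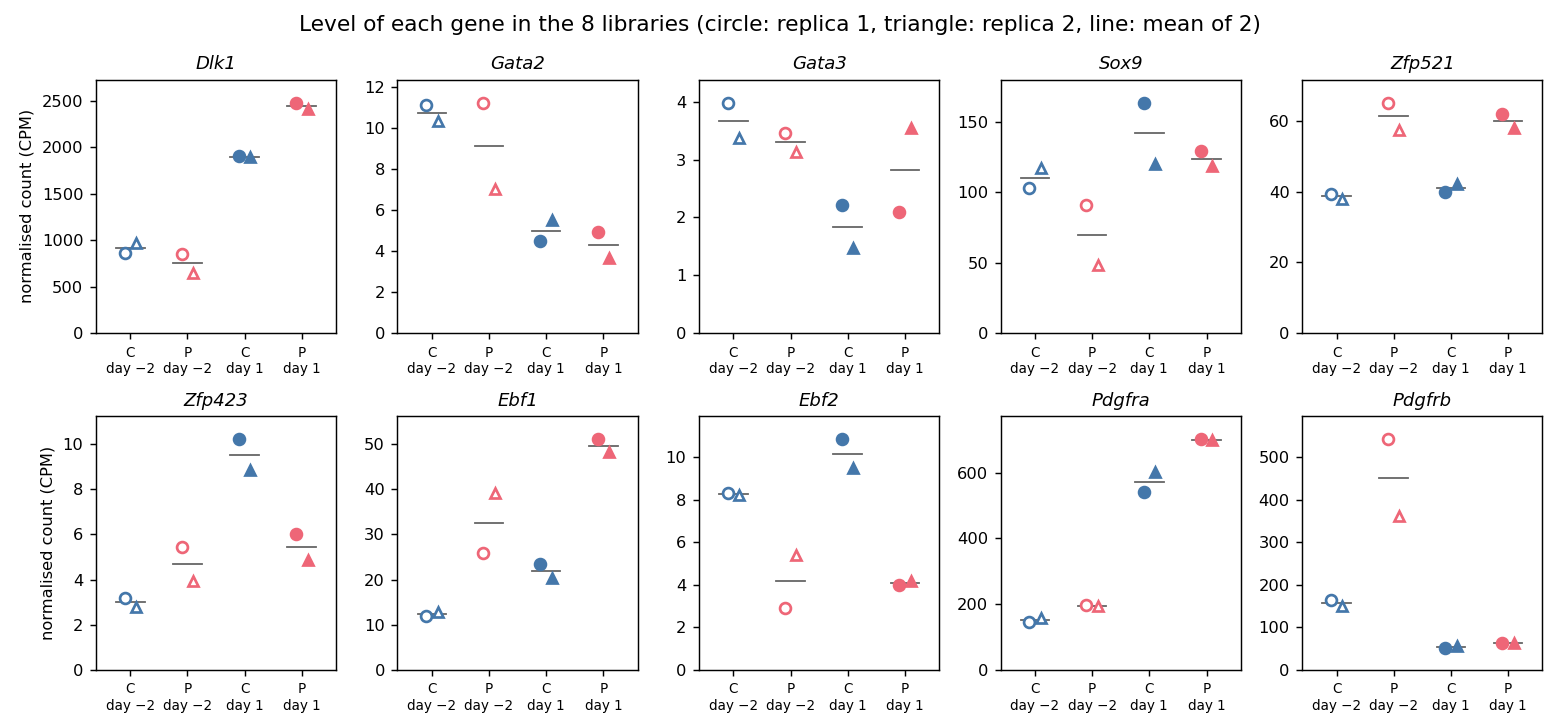
Level of each of the 10 genes in the 8 libraries, as normalised counts (CPM) on linear axes that start at 0; circles are replica 1, triangles replica 2, and the line is the mean of 2. Open symbols are day −2, filled symbols day 1, blue C cells and red P cells. Pdgfra and Dlk1 sit highest at day 1, Pdgfrb sits highest in P cells at day −2 (542 and 362 CPM), and the red and blue points of Ebf1, Ebf2 and Zfp521 are apart at both days.

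Dlk1 rose on induction in both cell types. For Dlk1, the C replicas gave 860.5 and 973 CPM and the P replicas 856 and 645 at day −2, and they gave 1906 and 1898 (C) and 2482 and 2409.9 (P) at day 1. All 4 day 1 libraries were above all 4 day −2 libraries, and P cells were the highest condition at day 1 and the lowest at day −2. The log2 ratio was 1.05 (SE 0.18, adjusted p = 0.00690, edgeR) in C cells and 1.70 (SE 0.18, adjusted p = 0.00148) in P cells. Between P and C cells it was −0.29 (SE 0.18, adjusted p = 0.334) at day −2 and 0.36 (SE 0.18, adjusted p = 0.395) at day 1. The rise in C cells sat just over the 2-fold threshold: without replica 1 of C cells at day −2 it was 0.97 (adjusted p = 0.0777), and with library totals in place of TMM it was 0.94.

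Gata2 fell on induction in both cell types. This zinc finger factor represses the Pparγ promoter. For Gata2, the C replicas gave 11.1 and 10.3 CPM and the P replicas 11.2 and 7.02 at day −2, and they gave 4.50 and 5.49 (C) and 4.91 and 3.64 (P) at day 1. All day 1 libraries were below all day −2 libraries, while C and P cells overlapped at both days. The log2 ratio was −1.10 (SE 0.29, adjusted p = 0.0328, edgeR) in C cells and −1.09 (SE 0.29, adjusted p = 0.0414) in P cells, and between P and C cells −0.24 at day −2 and −0.22 at day 1 (adjusted p = 0.596 and 0.833). The calls depended on single libraries. In C cells they were lost without replica 1 or 2 of day −2 (−1.05 and −1.15, adjusted p = 0.160 and 0.134) and without replica 1 or 2 of day 1 (−0.93 and −1.25, adjusted p = 0.1795 and 0.1035). In P cells they were lost without replica 1 of day −2, where the ratio was −0.72 (adjusted p = 0.0389), and without replica 1 or 2 of day 1 (−1.32 and −0.89, adjusted p = 0.120 and 0.243), and also with library totals (−0.88) and in a fit of the P conditions alone (−1.09, adjusted p = 0.192).

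Gata3, the close relative of Gata2, had few counts, 37 in its lowest library, and was called in no comparison. For Gata3, the C replicas gave 3.98 and 3.37 CPM and the P replicas 3.46 and 3.14 at day −2, and they gave 2.21 and 1.47 (C) and 2.09 and 3.55 (P) at day 1. In C cells the day 1 libraries lay below those of day −2, and in P cells they lay on both sides of them. The log2 ratio in C cells was −0.996 (SE 0.355, adjusted p = 0.0826, edgeR), a ratio just short of the threshold, and in P cells −0.23 (adjusted p = 0.667). Between P and C cells it was −0.16 at day −2 and 0.61 at day 1 (adjusted p = 0.774 and 0.498). The fall in C cells passed with DESeq2 (adjusted p = 0.0612), with library totals (0.0642) and with the filter of 10 counts in every library (0.0628).

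Sox9 was not called in any comparison, and its values varied with the P library of day −2 that was used. For Sox9, the C replicas gave 103 and 117 CPM and the P replicas 90.8 and 48.6 at day −2, and they gave 163 and 120.1 (C) and 129 and 118 (P) at day 1. Both P libraries of day −2 were below every other library, and their gap of 0.90 on the log2 scale was the largest between replicas for any of the 10 genes. P over C gave a log2 ratio at day −2 of −0.66 (SE 0.30, adjusted p = 0.224, edgeR), and induction gave 0.37 (adjusted p = 0.413) in C cells and 0.83 (SE 0.30, adjusted p = 0.0960) in P cells. P over C at day 1 was −0.20 (adjusted p = 0.857). Without replica 1 of P cells at day −2 the first ratio was −1.17 (adjusted p = 0.00318) and induction in P cells 1.34 (adjusted p = 0.000650), both then called, and without replica 2 they were −0.28 (adjusted p = 0.214) and 0.45 (adjusted p = 0.0579). With library totals in place of TMM, induction in P cells was called too (1.05, adjusted p = 0.0318).

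Zfp521, the zinc finger protein that opposes Zfp423 and EBF activity, separated P from C cells at both days by less than 2-fold. For Zfp521, the C replicas gave 39.4 and 38.0 CPM and the P replicas 65.1 and 57.5 at day −2, and they gave 39.8 and 42.1 (C) and 62.1 and 58.1 (P) at day 1. All 4 P libraries were above all 4 C libraries, and the days differed little within each cell type. P cells were 1.58-fold higher at day −2 (log2 0.66, SE 0.14, adjusted p = 0.0446, edgeR) and 1.47-fold higher at day 1 (log2 0.55, SE 0.14, adjusted p = 0.0945). Over 16 alternative fits the log2 ratio was 0.47 to 0.75 at day −2 and 0.48 to 0.66 at day 1. The adjusted p did not stay under 0.1 in all of them at either day. Induction gave log2 ratios of 0.08 in C cells and −0.03 in P cells (SE 0.14 in each, adjusted p = 0.711 and 0.899).

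**Figure D2:**
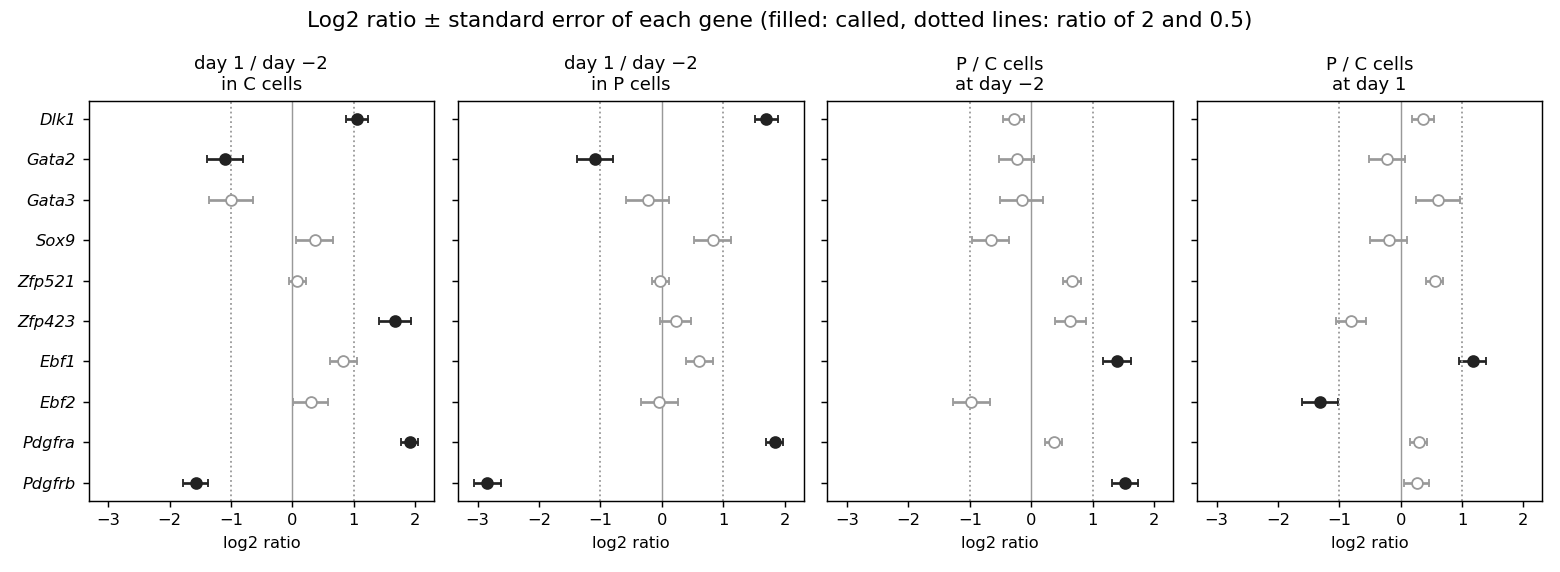
Log2 ratio ± standard error of each gene in the 4 comparisons, from the edgeR fit over 8 libraries; filled points were called, open points were not, and dotted lines mark ratios of 2 and 0.5. Dlk1, Gata2, Pdgfra and Pdgfrb were called on induction in C and in P cells, Zfp423 in C cells (1.67), and Ebf1 was called between P and C cells at both days (1.40 and 1.18).

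Among the commitment factors, Zfp423 rose on induction in C cells and moved little in P cells. This zinc finger protein marks committed preadipocytes and favours Pparg expression. For Zfp423, the C replicas gave 3.19 and 2.79 CPM and the P replicas 5.43 and 3.92 at day −2, and they gave 10.2 and 8.87 (C) and 6.02 and 4.85 (P) at day 1. P cells lay above C cells at day −2 and below them at day 1, without overlap at either day, and the P libraries of the 2 days overlapped. The log2 ratio was 1.67 (SE 0.26, adjusted p = 0.00441, edgeR) in C cells and 0.22 (SE 0.25, adjusted p = 0.547) in P cells. Between P and C cells it was 0.64 (SE 0.26, adjusted p = 0.181) at day −2 and −0.81 (SE 0.25, adjusted p = 0.153) at day 1, neither of which was called.

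Ebf1 was higher in P cells at both days. Ebf1 is an early B-cell factor that adipocyte precursors use to activate Pparg and Cebpa. For Ebf1, the C replicas gave 11.9 and 12.8 CPM and the P replicas 25.9 and 39.2 at day −2, and they gave 23.5 and 20.4 (C) and 51.1 and 48.3 (P) at day 1. On the TMM scale all P libraries were above all C libraries of either day. The order of uninduced P cells over induced C cells depended on this scaling. Replica 1 of P cells at day −2 had 486 of 22433190 counts. Replica 1 of C cells at day 1 had 597 of 25639150, a larger share of its library total. P cells exceeded C cells by 1.40 on the log2 scale (SE 0.22, adjusted p = 0.0172, edgeR) at day −2 and by 1.18 (SE 0.22, adjusted p = 0.0376) at day 1. Induction gave 0.83 (SE 0.22, adjusted p = 0.0349) in C cells and 0.61 (SE 0.22, adjusted p = 0.0914) in P cells, ratios under 2. The calls depended on single libraries: at day −2 the adjusted p was 0.191 without replica 1 and 0.1655 without replica 2 of C cells at day −2 (log2 1.35 and 1.45), and 0.201 in a fit of these conditions alone. At day 1 the call was lost without replica 1 or 2 of C cells at day −2 (adjusted p = 0.118 and 0.117), of C cells at day 1 (0.225 and 0.310) and of P cells at day 1 (0.279 and 0.236), with log2 ratios of 1.07 to 1.25.

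Ebf2, the EBF factor linked to brown and beige precursors, went the other way. For Ebf2, the C replicas gave 8.32 and 8.24 CPM and the P replicas 2.93 and 5.42 at day −2, and they gave 10.8 and 9.51 (C) and 3.97 and 4.20 (P) at day 1. All P libraries were below all C libraries of either day. P over C gave a log2 ratio of −0.98 (SE 0.30, adjusted p = 0.110, edgeR) at day −2, not called, and −1.32 (SE 0.30, adjusted p = 0.0689) at day 1, called. Induction gave 0.30 (adjusted p = 0.492) in C cells and −0.04 (adjusted p = 0.931) in P cells. Without replica 2 of P cells at day −2 the first ratio was −1.50 (adjusted p = 0.000448) and without replica 1 it was −0.61 (adjusted p = 0.0624). At day 1 the call was lost without replica 1 or 2 of C cells at day −2 (adjusted p = 0.178 and 0.177), of C cells at day 1 (0.321 and 0.283) and of P cells at day 1 (0.424 and 0.359), with log2 ratios of −1.42 to −1.25, and with library totals (−1.21, adjusted p = 0.147).

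Pdgfra rose on induction by similar ratios in both cell types. Its product is the receptor for PDGF-AA among other dimers and is a usual marker of adipocyte progenitors. For Pdgfra, the C replicas gave 146 and 158 CPM and the P replicas 196 and 195 at day −2, and they gave 541 and 603 (C) and 701 and 699.9 (P) at day 1. The days did not overlap. On the TMM scale P cells lay above C cells at each day, and the replicas of P cells at day −2 were close for this gene. At day −2 both depended on the scaling. P replicas 1 and 2 had 3686 of 22433190 and 5458 of 27614353 counts there, and C replica 2 had 3565 of 20929962. By these shares C replica 2 lay between the P replicas. The log2 ratio was 1.91 (SE 0.14, adjusted p = 0.000252, edgeR) in C cells and 1.84 (SE 0.14, adjusted p = 0.000430) in P cells. P cells were above C cells by 0.36 (SE 0.14, adjusted p = 0.159) at day −2 and 0.29 (SE 0.135, adjusted p = 0.3595) at day 1, neither of which was called. Mir7025, which overlaps Pdgfra on GRCm38.p6, had 95 to 379 counts, 1.70% to 5.21% of the Pdgfra counts of the same library, and the strand used in counting is not given in the sources used here.

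Pdgfrb fell on induction in both cell types and was higher in P than in C cells before it. For Pdgfrb, the C replicas gave 164 and 149.8 CPM and the P replicas 542 and 362 at day −2, and they gave 50.1 and 54.9 (C) and 62.6 and 63.0 (P) at day 1. Both day −2 libraries of P cells were the highest of the 8, and the 4 conditions followed each other without overlap, the highest mean being 8.61 times the lowest. Induction lowered it by a log2 ratio of −1.58 (SE 0.21, adjusted p = 0.00257, edgeR) in C cells and −2.85 (SE 0.22, adjusted p = 0.000471) in P cells. P cells exceeded C cells by 1.53 (SE 0.21, adjusted p = 0.0101) at day −2 and by 0.26 (SE 0.21, adjusted p = 0.658) at day 1. The day −2 call was lost in a fit of these conditions alone (1.53, adjusted p = 0.1725, edgeR). It was also lost without replica 1 or 2 of C cells at day −2 (1.59 and 1.47). With 1 P replica alone the ratio was 1.79 (replica 1) or 1.21 (replica 2). Those fits drop the widest pair of replicas from the estimate of the spread, so the call was not judged from them.

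Among markers of pericytes, mural cells known for Pdgfrb, Mcam was higher in P cells at day −2 and the others were not. The summed level of 5 such markers at day −2 was 12.9 to 13.1 CPM for C and 61.2 to 103 for P replicas, and at day 1 2.37 to 4.10 for C and 14.0 to 16.7 for P replicas. Mcam, an adhesion molecule, carried most of this sum, with log2 ratios of 3.01 at day −2 for P over C (adjusted p = 0.00370, edgeR) and 2.37 at day 1 (adjusted p = 0.0128), the latter with adjusted p up to 0.125 and no call without replica 1 of C cells or either replica of P cells at day 1. Of the other markers tested, Abcc9 had a ratio of −0.83 at day −2 (adjusted p = 0.632), Kcnj8 had 7 to 15 counts in C and 0 to 1 in P cells there, and the median of the 3 tested was −0.83. The defining pericyte marker Rgs5 had 5 to 6 counts in C and 2 in each P library of day −2, and Cspg4 had 1 to 11 in any library. All libraries came from the 3T3-L1 line, and a link between these markers and the Pdgfrb values was not tested.

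**Figure D3:**
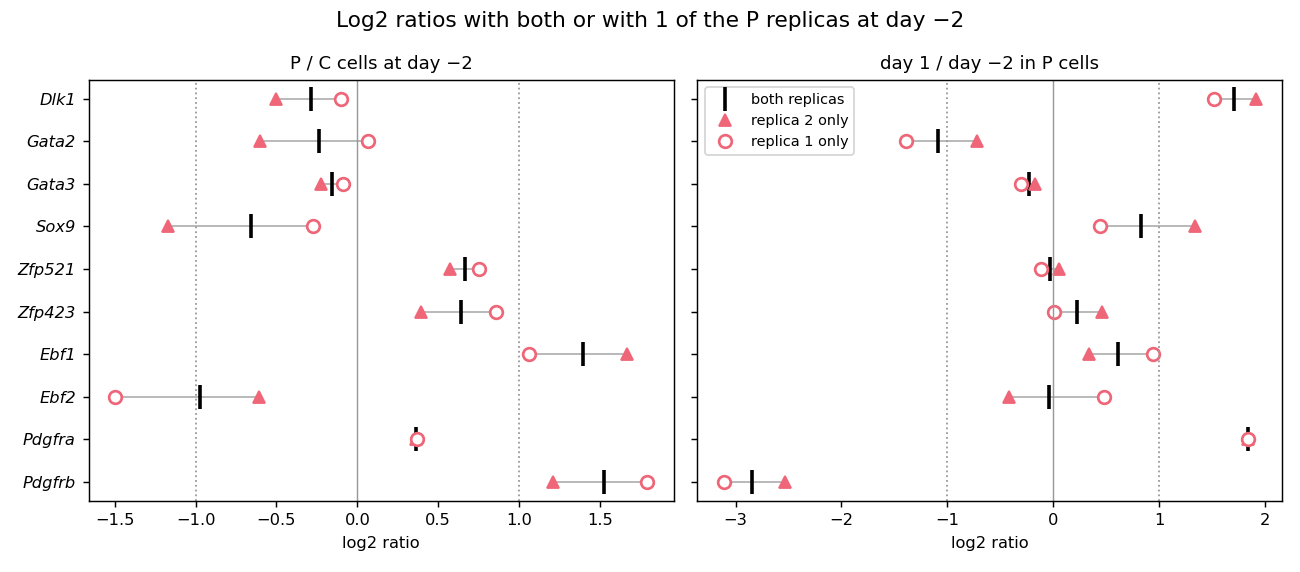
Log2 ratios of the 10 genes in the comparisons that use P cells at day −2, with both replicas (bar), with replica 2 only (triangle) and with replica 1 only (open circle); dotted lines mark ratios of 2 and 0.5. Sox9 and Ebf2 cross the dotted line at −1 depending on the replica (−1.17 and −1.50 at the far ends), Gata2 changes sign (0.07 with replica 1 only), and Pdgfra and Dlk1 on induction stay beyond 1 with either.

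Ratios of counts within a library do not depend on how libraries are scaled. They depend on gene lengths, so only their change between libraries was read. Pdgfra over Pdgfrb gave 0.892 and 1.05 in the C replicas and 0.362 and 0.538 in the P replicas of day −2, then 10.8 and 10.99 (C) and 11.2 and 11.1 (P) at day 1. The 4 day 1 libraries came within a narrow range whatever the cell type, although the day −2 libraries of P and C cells lay apart. Ebf1 over Ebf2 gave 1.44 and 1.55 in the C replicas and 8.84 and 7.23 in the P replicas of day −2, then 2.17 and 2.15 (C) and 12.9 and 11.5 (P) at day 1. P replicas exceeded C replicas in this ratio 5.35-fold before and 5.64-fold after induction (log2 2.42, SE 0.16, and 2.50, SE 0.08, n = 2 against 2), while induction moved it 1.45-fold in C cells and 1.52-fold in P cells. Zfp423 over Zfp521, a commitment factor over its opponent, gave 0.0809 and 0.0733 in the C replicas and 0.0833 and 0.0682 in the P replicas of day −2, then 0.257 and 0.211 (C) and 0.0970 and 0.0835 (P) at day 1. C cells at day 1 stood above the other 3 conditions, by 3.02-fold over C cells at day −2 and 2.59-fold over P cells at day 1, and P and C cells overlapped at day −2. Gata2 over Gata3 overlapped in every comparison. With 2 against 2 libraries an exact permutation test cannot go below p = 0.333, so no p is given for these ratios.

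**Figure D4:**
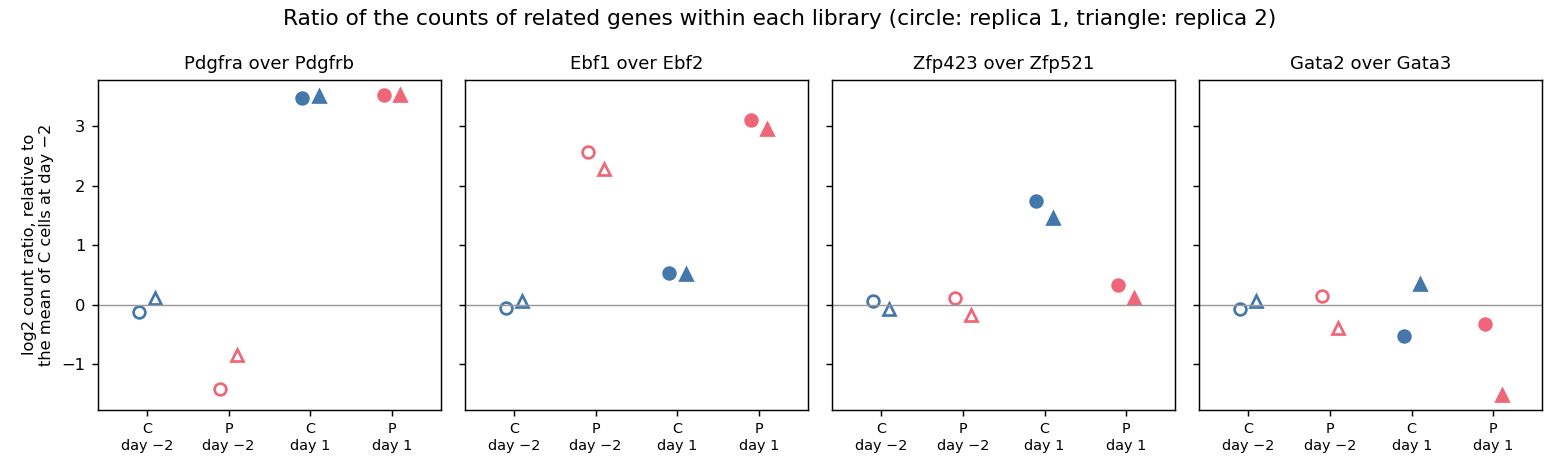
Log2 ratio of the counts of 2 related genes within each library, relative to the mean of C cells at day −2, for 4 pairs; circles are replica 1, triangles replica 2, open symbols day −2, filled symbols day 1, blue C cells and red P cells. Pdgfra over Pdgfrb joins P and C cells at day 1, Ebf1 over Ebf2 separates P from C cells at both days (5.35-fold and 5.64-fold), and Zfp423 over Zfp521 is highest in the C libraries of day 1 (0.257 and 0.211 before centring).

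An interaction term asked whether P cells responded to induction as C cells did, and here the ratio threshold was dropped. Over all genes, 0.435% had a more positive and 1.93% a more negative response in P cells (58 and 258 genes, or 86 and 186 with library totals). None of the 10 genes was called with edgeR, 3 had an unadjusted p under 0.05 beside 14.4% of all genes, and DESeq2 called 2 beside 6.97%. Those 3 were Pdgfrb, Zfp423 and Dlk1. For Pdgfrb the difference was −1.27 (SE 0.29, adjusted p = 0.118, edgeR), a deeper fall in P cells, and −1.29 with DESeq2 (adjusted p = 0.00663). For Zfp423 it was −1.45 (SE 0.36, adjusted p = 0.139), and −1.47 with DESeq2 (adjusted p = 0.0256). For Dlk1 it was 0.65 (SE 0.25, adjusted p = 0.318), the larger rise being in P cells.

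These differences depended on the P libraries of day −2. Without replica 1 of that condition, Pdgfrb (−0.97, adjusted p = 0.00479), Zfp423 (−1.225, adjusted p = 0.0414), Dlk1 (0.84, adjusted p = 0.0152) and Sox9 (0.96, adjusted p = 0.0375) were all called. Without replica 2, Pdgfrb (−1.53, adjusted p = 0.000120), Zfp423 (−1.67, adjusted p = 0.00182) and Dlk1 (0.46, adjusted p = 0.0371) were. Calls over all genes rose with them, to 1516 (11.4%) without replica 1 and to 8332 (62.5%) without replica 2, so 3 of 10 in the latter fit is below the share of all genes. Leaving out either library also removes the widest pair of replicas from the estimate of the spread, and the remaining library is then assumed to vary like the other conditions. The other 7 genes gave differences between −0.34 (Ebf2) and 0.77 (Gata3), with adjusted p from 0.446 to 0.988.

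Of the partners of Dlk1, the Notch receptors that it can bind among them, 10 of 11 were tested. Induction in C cells raised Hes1 (log2 1.53), a Notch target that itself restrains adipogenesis, Notch3 (3.14) and Notch1 (1.29), and lowered Dlk2 (−3.40), the paralogue of Dlk1. In P cells Dlk2 fell (−3.94) and no other was called. Notch3 was higher in P than in C cells at day −2 (3.17) and Hey1, another Notch target, at day 1 (2.00, on 24 to 99 counts). Dlk1 and Dlk2 thus changed in opposite directions on induction in both cell types. The median log2 ratio of the list was 0.51, 0.27, 0.26 and −0.06 in the 4 comparisons. Meg3, the imprinted neighbour of Dlk1, had too few counts to be tested.

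Of the GATA relatives and cofactors, 3 of 6 were tested. Zfpm1, a cofactor that binds GATA factors, fell on induction with Gata2, by −1.45 in C cells (adjusted p = 0.0878, edgeR) and −1.75 in P cells (adjusted p = 0.0593). The C cell call of Zfpm1 was lost on leaving out 6 of the 8 libraries (−1.69 to −1.20). Gata6 rose in P cells (1.12). The median log2 ratios of this list were −0.62, 0.23, 0.20 and 0.56. Of Ebf3, Ebf4 and Zfp467, 2 were tested, and Zfp467, a zinc finger protein that favours adipogenesis, was higher in P cells at day −2 (1.22, adjusted p = 0.0460), with medians of 0.36, 0.00, 0.56 and 0.20. The P libraries of day −2 were far apart for Zfpm1, at 11.9 and 41.8 CPM against 7.51 and 8.37 at day 1, and the P cell ratio was −0.59 (adjusted p = 0.0480, not called) without replica 1 and −2.40 without replica 2. Of 5 SOX relatives 2 were tested, and Sox5 (−1.30) and Sox4 (−1.61) were called lower on induction in P cells, Sox4 at 127 and 457 CPM at day −2 against 94.1 and 96.8 at day 1. Without replica 1 of P cells at day −2 Sox4 was −0.43 (adjusted p = 0.0547), and it kept its call only without replica 2 of that condition (−2.26) among the 8 libraries left out. The SOX list had medians of −0.51, −1.46, 0.32 and −0.62.

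The PDGF ligands fell on induction while Pdgfra rose. Of 4 ligands 3 were tested, and Pdgfb and Pdgfc were called lower in C cells and Pdgfa, Pdgfb and Pdgfc in P cells. Pdgfc, a ligand of Pdgfra, had ratios of −1.05 in C and −1.55 in P cells, and Pdgfa, its classical ligand, by −1.17 in P cells. Pdgfb, a ligand of Pdgfrb, had 112 to 134 counts in C cells and 17 to 22 in P cells at day −2 and 1 count in each of the 4 day 1 libraries. At day −2 it was lower in P cells by −2.55 (adjusted p = 0.0150, edgeR), the opposite direction to Pdgfrb. That call was lost without replica 1 or 2 of C cells at day −2, with ratios of −3.07 to −2.13 on leaving out single libraries. The median log2 ratio of the ligands was −1.05, −1.55, −0.07 and −0.32.

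Of 19 other genes known to restrain adipogenesis 17 were tested. In C cells Foxo1 (2.67), Klf2 (3.02) and Hes1 (1.53) rose on induction and none fell. In P cells Foxo1 rose (1.85), while Ddit3 (−1.40), the stress factor that blocks C/EBP proteins, and Smad3 (−1.08), which carries the TGFβ signal, fell. At day −2 Klf2, a repressor of Pparg, was higher in P cells (1.43, adjusted p = 0.0913, edgeR) and Wnt10a, a Wnt ligand that restrains adipogenesis, was lower, with 0 counts in both P libraries against 16 to 18 in C cells, a log2 bound of −2.43 with each P library set to 3 counts. At day 1 Bhlhe40 was lower in P cells (−2.00), with 662 to 798 counts against 3245 to 3321. The median of the list was 0.15, 0.17, 0.18 and −0.40, the second being 0.04 without Wnt10a, which was at or under 3 counts in every P library. At day 1, 15 of the 17 had a log2 ratio below 0, beside 48.8% of all genes tested, although 1 was called. The list was chosen with earlier results of these data known, so this count describes these genes and not a class.

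Of 14 other commitment genes 10 were tested. Vstm2a, a secreted protein that promotes commitment, rose on induction in C (1.84) and P cells (2.19) and was higher in P than in C cells at day −2 (1.54) and day 1 (1.90). Ccn5, a partner that holds Zfp423 out of the nucleus, was higher in P cells at day −2 (2.59, adjusted p = 0.00392, edgeR). Ccn5 was lower in P cells at day 1 (−1.42, adjusted p = 0.0367, edgeR), and fell on induction in P cells (−3.14). Its mean level at day −2 was 22.3 CPM for C and 134 for P cells, and at day 1 40.8 and 15.3. The list's median log2 ratio was 0.05, 0.05, 0.18 and 0.22.

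Of 11 surface markers of adipocyte progenitors 8 were tested, and they did not move together. Pi16 (4.30 and 4.70) and Ly6a (2.30 and 1.59), the gene of Sca-1, rose on induction in C and P cells, Cd34 fell in C cells (−1.61), and in P cells Cd24a rose (1.74) and Thy1 fell (−2.05). At day −2 Thy1 was higher (2.57) and Cd34 lower (−3.98, on 2 to 3 counts in P cells) in P cells, and at day 1 F3 was higher (1.40). Their medians were 0.16, 1.01, −0.29 and −0.45. For comparison, of the 12 genes of the adipogenic core, differentiation genes which the commitment genes precede, 11 were tested: 5 rose and 2 fell on induction in C cells, 9 rose in P cells, and 8 at day −2 and 7 at day 1 were higher in P than in C cells, with none lower. The 2 that fell were Slc2a4, with 4 to 5 counts at day −2 and 0 at day 1 (log2 bound −0.66), and Fabp4 (−1.01). Fabp4 lost this call on leaving out 6 of the 8 libraries (−1.47 to −0.63). Adipoq, among the 8, had 1 count in each C and 5 to 7 in the P libraries of day −2. The core's medians were 0.96, 1.89, 2.47 and 5.66, the last 2.55 with Slc2a4 at its bound.

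Many calls in these related lists depended on single libraries. On leaving out each of the 8 in turn, 14 of the 20 genes called on induction in C cells kept their call throughout, 15 of 26 in P cells, 4 of 17 between P and C cells at day −2 (Ccn5, Thy1, Fabp4 and Lpl) and 6 of 12 at day 1 (Bhlhe40, Fabp4, Adipoq, Lpl, Plin1 and Cidec). Dlk2, Pi16, Foxo1 and Vstm2a were among those kept on induction in both cell types. Klf2 at day −2 was lost on leaving out 7 of the 8 libraries, and Zfp467 on 5, with adjusted p up to 0.407 and 0.335. At day 1 Hey1 and Ccn5 were each lost on 6, with adjusted p up to 0.396 and 0.275.

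As a description of shared patterns, each of the 10 was set against 10904 genes with a mean of at least 50 counts, by the correlation of log2 CPM over 8 libraries. The libraries form 4 conditions in pairs, so many genes reach high values and no test was made. The closest were Myo6 to Dlk1 (0.995), Bend3 to Gata2 (0.993), Mrps7 to Gata3 (0.970), Foxf2 to Sox9 (0.976), Ydjc to Zfp521 (0.995), Plac8 to Zfp423 (0.985), Ostf1 to Ebf1 (0.990) and Casp6 to Ebf2 (0.986). Taz, the tafazzin gene, and Mmp2, a matrix metalloproteinase, were closest to Pdgfra (0.997 each), and Ccnd2, a D-type cyclin, and Csf1, a growth factor of macrophages, to Pdgfrb (0.997 and 0.993). Among the 10 themselves, Dlk1 and Pdgfra were most alike (0.946).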

How the data were processed

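RNA-seq libraries from 3T3-L1 cells, sequenced on Ion Torrent, were used as the whole-number read counts per gene deposited by the authors, 8 libraries in 1 table. Per the labels and the study's methods, reads were trimmed with the FASTX-Toolkit, aligned to mm9 with TopHat2 2.0.9 and counted per RefSeq gene with Bioconductor packages. Strand, and the treatment of reads shared by genes, are not given in the sources used here. The counts were tested with the quasi-likelihood test of edgeR 4.0.16 in R 4.3.3, with TMM scaling, the filterByExpr filter (13339 of 24013 genes kept) and 1 mean per condition over all 8 libraries. P-values were adjusted over all genes tested by the Benjamini-Hochberg method. SE is the size of the log2 ratio divided by the square root of the F statistic. As the labels do not say that the replicas came from separate infections, p-values measure the spread between these libraries. Symbols came from RefSeq (GRCm38.p6) by gene ID, with 23929 matched; its coordinates served only to find neighbouring and overlapping genes.

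Alternatives were DESeq2 1.42.0, its size factors, library totals, no filter, at least 10 counts in every library, only the conditions compared, the replicate number as a block, calls without the ratio threshold, a limit of 0.05 on adjusted p, and leaving out single libraries. A crossed block was added after seeing the data. The genes named were the 10 members, Prep1, genes of the related lists and the closest correlated genes. The plan was to name up to 4 called genes with the lowest p from each related list. More than that were named from some lists, after their values were seen. Markers and Mir7025 were also named after their values were seen. Members and lists were chosen with earlier results of these data known. Levels of different genes were not compared, since no transcript lengths were used, and a gene's sequence was not analysed here.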

Additional observations from a re-analysis of the deposited data

Results flagged for a closer look

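Among the related genes, 10 responded to induction differently in P and C cells by the edgeR interaction test at an adjusted p under 0.1. Over all 13339 genes tested, 316 (2.37%) were called in this way. The lists were chosen with earlier results of these data known, so the 10 are described singly and not as a class. Each value here is the log2 response of P cells minus that of C cells. The response was more negative in P cells for Notch3 (−3.71, adjusted p = 0.0402), Ccn5 (−4.01, adjusted p = 0.00749), Thy1 (−1.96, adjusted p = 0.0212) and Ddit3 (−1.48, adjusted p = 0.0445). It was also more negative for Cebpa (−2.61, adjusted p = 0.0836) and Cebpd (−2.53, adjusted p = 0.0617), the genes of C/EBPα and C/EBPδ, which were both higher in P than in C cells at day −2 and rose on induction in C cells. The response was more positive in P cells for Fabp4 (2.57, adjusted p = 0.0462), the fatty acid binding protein of adipocytes, and for Cidec (4.51, adjusted p = 0.0130), a lipid droplet protein. It was more positive for Adipoq (5.24, adjusted p = 0.0939), which had 1 to 3 counts in each C library, and for Slc2a4 (9.10, adjusted p = 0.0895), which was at 0 counts in both C libraries of day 1, so that both are fitted values that depend on the prior count and are no bounds. On leaving out each library in turn, Ccn5 kept its call throughout and the other 9 lost theirs at least once. All 10 comparisons use the P libraries of day −2, whose replicas stood apart. No group had 4 or more libraries, so single outlying libraries were not tested.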

How the results depend on the processing

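Of the 790 values of the 10 genes recomputed under 16 alternatives (15 for the difference between responses), 718 kept their direction and their side of the threshold, 31 lost the call, 20 gained it and 21 changed sign. Of the 10 genes, 2 were called for the difference between responses with DESeq2 and 1 each with no filter, with 10 counts in every library and with the crossed block, against 0. At day 1, 1 was called instead of 2 with library totals, with the replicate block and at an adjusted p under 0.05, and at day −2 0 instead of 2 in the fit of its own conditions, where no spread is borrowed from the other libraries. Leaving out each library gave 3 to 5 for induction in C cells, 3 to 4 in P cells, 0 to 3 at day −2, 0 to 2 at day 1 and 0 to 4 for the difference. Over all genes the same ranges were 1722 to 3194, 1282 to 4925, 182 to 4290, 64 to 1003 and 31 to 8332, against 2723, 2406, 931, 542 and 316, the highest without a P replica of day −2. Library totals moved the all-gene median by −0.11, 0.17, −0.18 (day −2), 0.10 (day 1) and 0.29, and changed the sign of Zfp521 (−0.030 in C cells, 0.16 in P cells, 0.19 for the difference), Ebf2 on induction in P cells (0.10) and the differences of Ebf1 (0.044) and Pdgfra (0.22). The difference for Gata2, 0.01, was −0.007105 with DESeq2, −0.008397 with its size factors, and −0.29 to 0.36 on leaving out libraries. Without replica 2 of P cells at day −2, Ebf2 on induction in P cells was 0.48 (−0.42 without replica 1), Gata2 at day −2 0.067 (−0.60 without replica 1) and the differences of Ebf1 and Ebf2 0.11 and 0.18 (−0.51 and −0.73 without replica 1). Other changes of sign on leaving out a library were Zfp521 on induction in P cells (−0.12 to 0.055), Gata3 in P cells (−0.65 to 0.11), Sox9 at day 1 (−0.41 to 0.0091) and the difference of Pdgfra (−0.17 to 0.013); the causes of these changes were not tested. Over all genes, 930 differences were called with DESeq2, 117 with the replicate block and 174 at an adjusted p under 0.05, against 316. At day −2, 81 were called in the fit of its own conditions, 597 with the block, 602 at an adjusted p under 0.05 and 1513 without the ratio threshold, against 931; at day 1, 838, 386, 397 and 820 against 542. Induction calls without the ratio threshold were 4743 in C and 4192 in P cells, against 2723 and 2406, and 1151 in P cells in the fit of its own conditions. The labels do not say whether equal replica numbers pair the libraries, and with 2 replicas per condition the counts could not decide it. Of 6 pairs of conditions 1 had a correlation of deviations over 0.1, C with P cells at day −2 (0.21), and the lowest was −0.36. Over the more abundant genes 2 of 6 did, C with P cells at day −2 (0.44) and at day 1 (0.14), and the lowest was −0.75. The replicate block changed the call of Ebf2 at day 1 (−1.32, adjusted p = 0.135, edgeR) and no other of the 10 genes. Crossing the day 1 numbers called Ebf2 at day −2 (−1.01) and the difference of Pdgfrb (−1.25). Depth limits Gata3 most, with 37 counts in its lowest library.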

Other observations

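The nearest tested gene on each side of the 10 on GRCm38.p6 was taken, 20 genes in all, and genes that failed the filter were skipped. Of these 20, 3 were called on induction in C cells, 5 in P cells and 1 between P and C cells at day −2. Over all genes the shares were 20.4%, 18.0% and 6.98%. Csf1r, the CSF1 receptor gene beside Pdgfrb, fell on induction in C cells (log2 −4.46, adjusted p = 0.00126, edgeR) and in P cells (−2.63, adjusted p = 0.0119), as Pdgfrb did, but at day −2 it was lower in P than in C cells (−1.55, adjusted p = 0.0799), where Pdgfrb was higher (1.53, adjusted p = 0.0101). Csf1r was named after its values were seen.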
